A study of Mus musculus with 8 samples.

Results

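The genes of the voltage-gated ion channels were followed from mouse embryonic stem cells (ESCs) to the neural precursor cells (NPCs) derived from them by in vitro corticogenesis, a culture in which ESCs take a cortical neural fate. Members were chosen by symbol, as the genes whose names start with Kcn, with Cacn, with Scn followed by a digit and a or b, or with Hcn followed by a digit. Of 142 such symbols, 18 were left out, namely 14 *Kcnk* genes, which encode leak channels, and the 4 non-coding transcripts *Kcnd3os*, *Kcnmb4os1*, *Kcnmb4os2* and *Kcnq1ot1*. This left 124 of the 26263 genes counted, of which 80 belong to the potassium, 14 to the sodium, 26 to the calcium and 4 to the HCN family. A symbol does not mark gating by voltage. The 80 potassium genes also hold the inward rectifiers (*Kcnj*) and the small-conductance, calcium-activated subunits (*Kcnn*), which do not sense voltage themselves. Auxiliary subunits that form no pore are among them too.

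Voltage-gated channels open and close with the potential across the cell membrane. In neurons, sodium channels carry the rising phase of the action potential, potassium channels end it and set the resting state, calcium channels couple electrical activity to calcium entry and transmitter release, and HCN channels open on hyperpolarisation and pace rhythmic firing. The pore is built from alpha subunits, while auxiliary subunits govern how many channels reach the membrane and how fast they open and close. Many of these genes are known to be switched on late in neuronal differentiation, and many are also used by heart, muscle and gland cells.

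Polyadenylated RNA was sequenced from 4 groups of 2 replicates. The ESCs of the cross B/J were line BJE2 (C57BL/6 x JF1) and those of the reciprocal cross J/B were line JBE6, grown with LIF, BMP4 and an inhibitor of GSK3-β, and the NPCs of each cross came from the same line at day 12 of corticogenesis. The corticogenesis medium of the NPC groups held B27 and dorsomorphin homolog 1, which the study added to favour survival and neurogenesis and which are not listed for the ESC medium, so cell stage and medium cannot be told apart. The labels name no deletion in any of the 4 groups of hybrids, both lines are male, and each cross is 1 line, so cross and line cannot be told apart. Nothing in the labels says that replicates came from separate cultures, so the p-values below measure the spread between these libraries, which may be technical. Counts on genes summed to 22537138 to 32706015 reads in a library. Levels are given as CPM, the reads of a gene relative to each 1000000 of that sum, so that 1 read stood for 0.0306 to 0.0444 CPM and the limit that a count of 0 allows, 3 reads, for 0.0917 to 0.133 CPM.

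The cell labels were checked against lists of marker genes. All 8 markers of pluripotency were lower in NPCs, where their summed level was 104 to 347 CPM against 4351 to 7258 CPM in ESCs. Higher in NPCs were 7 of 8 markers of neural precursors and 9 of 10 of neurons. The precursor marker not called was *Pax6* (log2 fold change 1.77 ± 0.73, edgeR adjusted p = 0.0606). It had 7.95 CPM in replicate 1 of the B/J NPCs, below the 13.9 CPM of replicate 1 of the B/J ESCs. The neuron sum was 394 to 2196 CPM in NPCs against 288 to 383 CPM in ESCs. By this sum, replicate 1 of the B/J NPCs stood barely above the ESC range. The remaining neuron marker, *Stmn2*, was lower (log2 fold change -1.51 ± 0.39, edgeR adjusted p = 0.009501). *Stmn2* gave 145 to 232 CPM of the ESC sums and 31.3 CPM of the sum in that NPC library. The closeness of that library to the ESC range therefore rested largely on *Stmn2*. The NPC libraries also held markers of other cell types: all 10 trophoblast markers were higher, with a summed level of 1351 to 3471 CPM against 12.4 to 75.8 CPM in ESCs, and 9 of 10 fibroblast markers, with 956 to 2312 CPM against 10.7 to 72.2 CPM. Of the trophoblast markers, *Tpbpa*, *Prl3d1* and *Prl2c5* had no read in any ESC library. Of the muscle markers, 5 were higher and 2 lower of the 9 tested. Of 6 endothelial markers 3 were higher and 1 lower, with a summed level of 288 to 933 CPM in NPCs against 32.4 to 90.4 CPM in ESCs. Most of that NPC sum was *Cdh5*, at 254 to 880 CPM. The endothelial marker that fell was *Pecam1*, from a mean of 51.1 CPM to 15.7 CPM, and *Tek* and *Tie1* were not called. Of 8 markers of glia, 3 were higher and 1 lower, and *Gfap*, the defining marker of astrocytes, was read at 0.263 to 0.519 CPM in NPCs. These are bulk libraries, in which fewer cells of a type and less RNA per cell cannot be told apart, and the part of these other cells in the channel genes below was not tested.

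The start regions were searched for letters of the element that binds REST, the repressor known to keep neuronal genes silent in other cells. *Rest* fell from 211 ± 13.1 CPM in ESCs to 62.98 ± 7.65 CPM in NPCs (SD, n = 4 libraries each; log2 fold change -2.23 ± 0.12 (SE), edgeR adjusted p = 1.47e-05). The central letters of that element, CAGCACC and GGACAG with 2 further bases between them, were searched on both strands within 5 kb of the start of each gene's canonical transcript in the mm39 genome (GRCm39), and matches were found at 4 of the 124 members (3.23%) and at 0.670% of 19091 protein-coding genes. Within 1 kb, with all letters inside the window, 2 members held a match (1.61%), against 0.241% of genes. Distances below run from the start to the middle of the match. The match at *Scn3b* lies in an exon, 556 bases from the start, at chr9:40181037-40181057 on the minus strand. Those at *Hcn3* (891 bases, chr3:89066643-89066663, plus strand), *Kcnh4* (993 bases, chr11:100649834-100649854, minus strand, its last letters beyond the 1 kb window) and *Cacna1b* (1117 bases, chr2:24652094-24652114, plus strand) lie in introns. They are printed 5′ to 3′ on the strand of the match to show the exact copies of these letters that the search found, and variants of the element were not searched, with the searched letters in capitals.
Scn3b: gctCAGCACCacGGACAGtag
Hcn3: cttCAGCACCacGGACAGcaa
Kcnh4: gttCAGCACCctGGACAGccg
Cacna1b: cgtCAGCACCacGGACAGctg
A match is a description of letters and not a bound site. *Scn3b*, *Kcnh4* and *Cacna1b* rose between the stages and *Hcn3* was not called, with values given for each below. Of all tested members 60.6% rose, and whether the letters bear on these changes was not tested.

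Most channel genes were higher in NPCs. Of the 124 members, 104 had enough counts to be tested, and by edgeR's quasi-likelihood test with adjusted p below 0.05, 63 rose from ESCs to NPCs over both crosses, 11 fell and 30 were not called. Over all 16399 genes tested, 37.5% rose, 31.9% fell and 69.4% were called in either direction, against 60.6% and 10.6% of the tested members. The rises include *Cacng1*, *Cacng2*, *Cacng3*, *Kcne4*, *Kcnip1*, *Kcnip4*, *Kcnj5*, *Kcnj13*, *Kcnj15* and *Scn7a*, with at most 3 reads each over the 4 ESC libraries. These genes passed the count filter through their NPC counts and could only be called as rises. The same filter was applied to all genes. The median log2 fold change of the tested members was 2.25, against 0.17 over all genes tested. In 66 of the 104 tested members every NPC library lay above every ESC library on the CPM scale, which held for 46.7% of all genes tested, and in 5 every NPC library lay below, which held for 20.5%. The count of rising members was 65 without replicate 1 of the B/J NPCs and 58 without replicate 2 of the J/B NPCs, the libraries with the lowest and the highest sum of neuron markers.

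**Figure D1:**
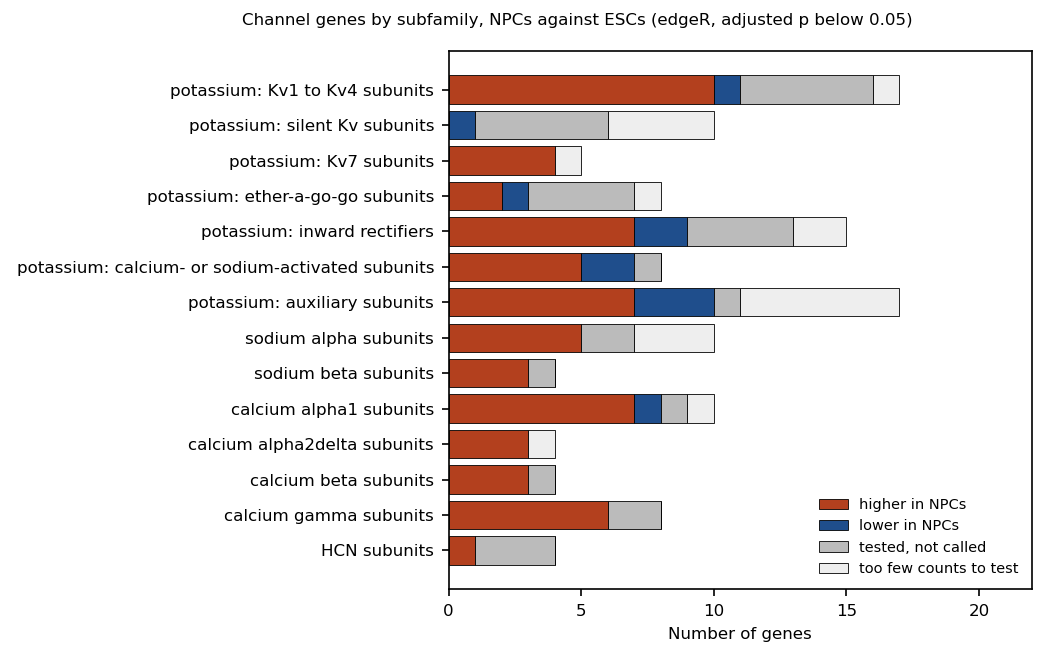
Number of channel genes in each subfamily (x axis) that were higher in NPCs, lower in NPCs, tested but not called, or too low to test, in the comparison of NPCs with ESCs over both crosses. Rising genes made up most of each calcium bar and 5 of the 10 sodium alpha subunits, while none of the 6 tested silent Kv subunits rose.

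The scale on which libraries are set beside each other matters for the genes that fell. The main comparison used TMM factors, which were 0.820 to 0.885 in ESCs and 1.14 to 1.21 in NPCs, and on library totals the median of all genes moved from 0.17 to 0.65. On that scale 72 members rose and 6 fell, while 70.1% of all calls were rises, against 54.0% with TMM. Scaled to *Gapdh*, *Gusb* and *Tbp* as housekeeping genes, the median of all genes was 0.80, the members again stood at 72 rises and 6 falls, and 75.0% of all calls were rises. Log2 fold changes below are on the TMM scale with their SE, and levels are CPM on library totals with their SD over 4 libraries.

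Among potassium channels, 35 of 65 tested genes rose, 10 fell and 20 were not called. This count and those of the groups below stand against the 37.5% of all genes tested that rose and the 31.9% that fell, and no group was tested against them. The pore subunits of the Kv1 to Kv4 groups, which carry the delayed rectifier and A-type currents of neurons, held 10 rises and 1 fall among 16 tested. *Kcnd3* encodes Kv4.3, an A-type subunit, and was read in ESCs at 0.0712 and 0.109 CPM in B/J and 0.976 and 0.302 CPM in J/B and in NPCs at 8.83 and 20.3 CPM in B/J and 16.5 and 51.01 CPM in J/B (log2 fold change 6.02 ± 0.64, edgeR adjusted p = 0.000132). Its NPC libraries all lay above its ESC libraries. *Kcnc1*, which encodes the fast delayed rectifier Kv3.1, was read at 0.0712 and 0.438 CPM in B/J and 0 and 0.302 CPM in J/B in ESCs and 3.86 and 14.4 CPM in B/J and 15.4 and 25.4 CPM in J/B in NPCs (log2 fold change 5.59 ± 0.84, edgeR adjusted p = 0.000701). For *Kcnb2*, a Kv2 delayed rectifier subunit, the levels were 0 and 0.0365 CPM in B/J and 0.0887 and 0.151 CPM in J/B in ESCs and 1.23 and 3.69 CPM in B/J and 2.45 and 7.69 CPM in J/B in NPCs (log2 fold change 5.60 ± 0.80, edgeR adjusted p = 0.000499). Both genes had at most 0.438 CPM in any ESC library and were lowest in replicate 1 of the B/J NPCs. *Kcna6*, a Kv1 subunit, differed from them in being nearly even across the NPC libraries, at 6.23 and 8.24 CPM in B/J and 5.96 and 7.81 CPM in J/B, after 0.0712 and 0.109 CPM in B/J and 0.133 and 0.151 CPM in J/B in ESCs (log2 fold change 5.44 ± 0.40, edgeR adjusted p = 3.01e-05).

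Other Kv1 genes rose too. *Kcna1*, whose product sits along axons and at their terminals, went from 0.0356 to 0.401 CPM over the ESC libraries to 0.682 and 2.11 CPM in B/J and 3.27 and 7.88 CPM in J/B in NPCs (log2 fold change 3.31 ± 0.75, edgeR adjusted p = 0.00505). *Kcna2*, its frequent partner, had a mean of 0.269 CPM in ESCs and 4.52 CPM in NPCs. *Kcna3* and *Kcna5* passed the test as well, with adjusted p = 0.0401 and 0.0407, but their NPC and ESC libraries overlapped. The call was lost in 5 of the 8 fits with a library left out for *Kcna3* (adjusted p = 0.0524 to 0.186) and in 6 for *Kcna5* (0.0678 to 0.171), and for *Kcna5* also with the replicate block (0.0521) and with a block within each stage, which was chosen after seeing the data (0.354). *Kcnc4*, another Kv3 gene, was highest in replicate 1 of the B/J NPCs, at 5.55 and 2.97 CPM in B/J and 2.57 and 2.81 CPM in J/B (log2 fold change 1.46 ± 0.45, edgeR adjusted p = 0.0202), and was not called without that library (adjusted p = 0.0805), without replicate 1 of the B/J ESCs (0.0730) or without replicate 2 of the J/B NPCs (0.0510). *Kcnd1*, an A-type subunit used in both stages, stood at 7.03 ± 2.12 CPM in ESCs, against 7.09 ± 1.31 CPM in NPCs and was not called (log2 fold change -0.46 ± 0.30, edgeR adjusted p = 0.198).

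Kv7 channels carry the M-current, a slow potassium current that holds neurons back from repetitive firing, and both *Kcnq3* and *Kcnq5* rose. *Kcnq3* was read at 0.107 and 0.766 CPM in B/J and 0.133 and 1.21 CPM in J/B in ESCs and 1.92 and 4.48 CPM in B/J and 3.73 and 11.98 CPM in J/B in NPCs (log2 fold change 2.73 ± 0.82, edgeR adjusted p = 0.0183), and its call was lost without replicate 1 of the B/J ESCs (adjusted p = 0.05601), replicate 2 of the B/J NPCs (0.0526) or replicate 2 of the J/B NPCs (0.0651). *Kcnq5* had 0.0712 and 0.255 CPM in B/J and 0.177 and 0.528 CPM in J/B in ESCs and 4.67 and 5.31 CPM in B/J and 2.905 and 5.31 CPM in J/B in NPCs (log2 fold change 3.74 ± 0.55, edgeR adjusted p = 0.000566).

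The ether-a-go-go group held 2 rises, 1 fall and 4 genes not called among 7 tested. *Kcnh1*, the founding member of the group, rose from 0.214 and 0.146 CPM in B/J and 0.222 and 0.302 CPM in J/B in ESCs to 2.66 and 5.91 CPM in B/J and 5.595 and 3.903 CPM in J/B in NPCs (log2 fold change 3.87 ± 0.46, edgeR adjusted p = 0.000213). *Kcnh4*, with the REST element letters in an intron, went from 0.5695 and 1.204 CPM in B/J and 0.355 and 1.66 CPM in J/B to 1.95 and 5.57 CPM in B/J and 4.403 and 13.2 CPM in J/B (log2 fold change 2.12 ± 0.64, edgeR adjusted p = 0.0183). Its call was lost without replicate 1 of the B/J ESCs (adjusted p = 0.0687), replicate 2 of the B/J NPCs (0.0641) or replicate 2 of the J/B NPCs (0.0707). *Kcnh3* fell, from 1.67 and 1.97 CPM in B/J and 1.73 and 3.85 CPM in J/B in ESCs to 0.325 and 0.602 CPM in B/J and 1.22 and 1.01 CPM in J/B in NPCs (log2 fold change -2.11 ± 0.43, edgeR adjusted p = 0.00308), with no overlap between the stages. *Kcnh2*, which encodes the hERG-type channel that ends the cardiac action potential, was read at 10.8 and 12.9 CPM in B/J and 8.697 and 13.96 CPM in J/B in ESCs and 12.9 and 32.8 CPM in B/J and 34.2 and 32.00 CPM in J/B in NPCs and narrowly missed the threshold (log2 fold change 0.77 ± 0.30, edgeR adjusted p = 0.0512). In 3 of the 4 NPC libraries it stood above all ESC libraries, and replicate 1 of the B/J NPCs lay among them. It was called as a rise in 9 alternatives, among them library totals (adjusted p = 0.00935), DESeq2 (0.0242), the replicate block (0.0302) and the fits without replicate 1 of the B/J NPCs (0.00659) or replicate 2 of the J/B ESCs (0.04303).

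**Figure D2:**
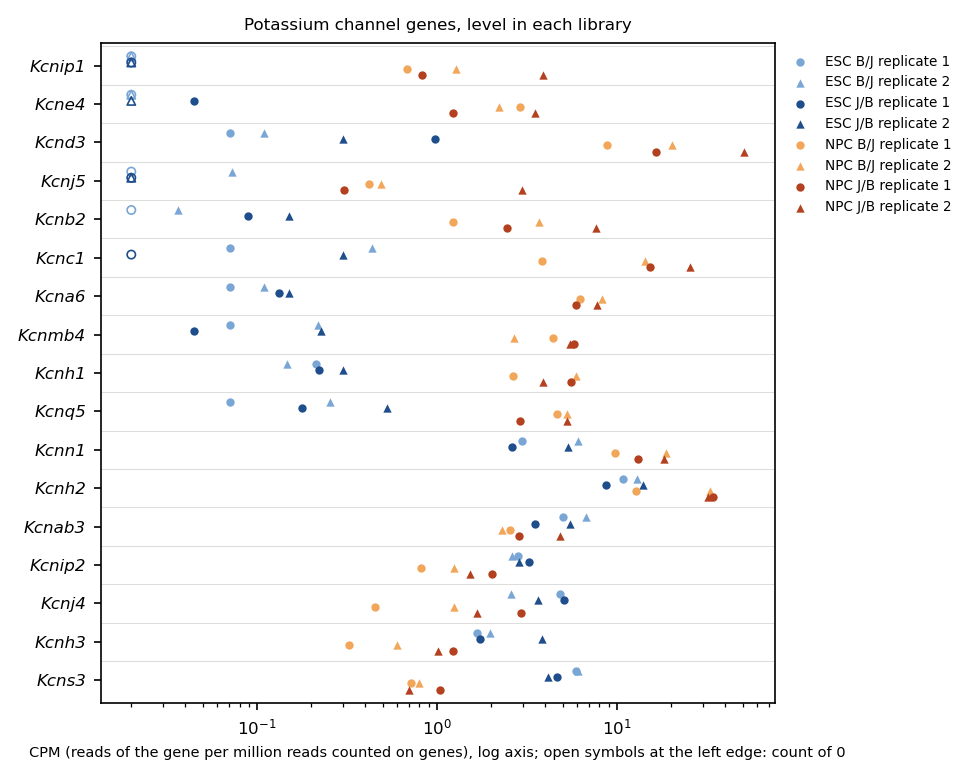
Level of each named potassium channel gene in the 8 libraries, in CPM on a log axis, ordered by log2 fold change from the largest rise to the largest fall; colour gives stage and cross, shape gives the replicate number, and open symbols at the left edge mark counts of 0. The rising genes stand apart in the 2 stages, while *Kcnh2*, *Kcnab3* and *Kcnj4* overlap.

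Inward rectifiers (*Kcnj*), which hold the resting potential, held 7 rises and 2 falls among 13 tested genes. *Kcnj5*, a G-protein-gated subunit of heart and brain, had 2 reads over the 4 ESC libraries, both in replicate 2 of B/J, and was read in NPCs at 0.422 and 0.489 CPM in B/J and 0.306 and 2.97 CPM in J/B. With TMM factors the NPC level was 36.4 times the ESC level, with a counting interval of 9.83 to 304 (95%, exact), and the edgeR adjusted p was 0.00878. Replicate 2 of the J/B NPCs stood far above the other NPC libraries, which did not exceed 0.489 CPM, and without it the ratio was 15.1. *Kcnj2*, the classical strong inward rectifier, rose from a mean of 0.369 CPM to 5.88 CPM, and *Kcnj11* and *Kcnj8*, the pore subunits of the ATP-sensitive potassium channel, rose from 0.218 to 2.05 CPM and from 0.169 to 1.60 CPM. *Kcnj13* had no read in ESCs and was at least 14.1-fold higher in NPCs, against a floor of 3 counts over the 4 ESC libraries. *Kcnj4* fell from 4.81 and 2.59 CPM in B/J and 5.06 and 3.66 CPM in J/B in ESCs to 0.454 and 1.24 CPM in B/J and 2.94 and 1.68 CPM in J/B in NPCs (log2 fold change -2.01 ± 0.46, edgeR adjusted p = 0.00522), although replicate 1 of the J/B NPCs overlapped the ESC range. *Kcnj16*, known from kidney and glia, fell from 0.459 to 0.0910 CPM.

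The calcium- or sodium-activated group held 5 rises and 2 falls among 8 tested. *Kcnn1* encodes SK1, a small-conductance channel opened by calcium, and was read at 2.99 and 6.06 CPM in B/J and 2.62 and 5.36 CPM in J/B in ESCs and 9.74 and 18.7 CPM in B/J and 13.1 and 18.2 CPM in J/B in NPCs (log2 fold change 1.34 ± 0.37, edgeR adjusted p = 0.01202). *Kcnma1*, the large-conductance BK channel gated by calcium and voltage together, rose from a mean of 0.243 CPM to 2.64 CPM, and *Kcnn3* from 0.363 to 6.39 CPM. The sodium-activated subunits *Kcnt1* and *Kcnt2* rose to means of 2.49 and 5.29 CPM. *Kcnn4*, the intermediate-conductance channel known from blood and epithelial cells, fell from 0.552 ± 0.138 CPM to 0.0647 ± 0.0555 CPM (log2 fold change -3.44 ± 0.78, edgeR adjusted p = 0.005103), and *Kcnu1*, a sperm channel, fell from 0.911 to 0.432 CPM. The call of *Kcnu1* was lost on library totals (adjusted p = 0.0846), on the housekeeping scale (0.128) and in 5 of the 8 fits with a library left out (0.0614 to 0.0996).

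The silent Kv subunits (*Kcnf*, *Kcng*, *Kcns* and *Kcnv*) form no channel alone but modify Kv2 channels, and none of the 6 that could be tested rose. *Kcns3* was the falling member with the lowest adjusted p, at 5.94 and 6.06 CPM in B/J and 4.66 and 4.15 CPM in J/B in ESCs and 0.714 and 0.7901 CPM in B/J and 1.04 and 0.703 CPM in J/B in NPCs (log2 fold change -3.14 ± 0.32, edgeR adjusted p = 0.000107). All 4 NPC libraries were near 1 CPM and all 4 ESC libraries above 4 CPM. The other 5 tested silent subunits were not called, with log2 fold changes of -0.99 to -0.10, and on library totals 3 of these 5 were positive (-0.52 to 0.38).

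Auxiliary potassium subunits held 7 rises and 3 falls among 11 tested. *Kcnip1*, a calcium-binding partner of Kv4 channels, had no read in any ESC library and was read in NPCs at 0.682 and 1.28 CPM in B/J and 0.826 and 3.86 CPM in J/B. Against a floor of 3 counts over the 4 ESC libraries the NPC level was at least 39.2-fold higher (edgeR adjusted p = 0.00196), and at least 22.96-fold without replicate 2 of the J/B NPCs. *Kcne4*, a small membrane protein that restrains Kv7 and Kv1 channels, had 1 read over the ESC libraries, in replicate 1 of J/B, and was read at 2.89 and 2.22 CPM in B/J and 1.22 and 3.51 CPM in J/B in NPCs. Its ratio was 181 with a counting interval of 32.1 to 7156 (edgeR adjusted p = 0.000502). *Kcnmb4*, the neuronal beta subunit of BK channels, rose from 0.0712 and 0.219 CPM in B/J and 0.0444 and 0.226 CPM in J/B in ESCs to 4.41 and 2.67 CPM in B/J and 5.78 and 5.503 CPM in J/B in NPCs (log2 fold change 4.48 ± 0.57, edgeR adjusted p = 0.000299). *Kcnip2*, a Kv4 partner best known from the heart, went the other way from *Kcnip1*, from 2.81 and 2.63 CPM in B/J and 3.24 and 2.87 CPM in J/B in ESCs to 0.811 and 1.24 CPM in B/J and 2.02 and 1.52 CPM in J/B in NPCs (log2 fold change -1.57 ± 0.34, edgeR adjusted p = 0.00417), without overlap. *Kcnab3*, a cytoplasmic Kv1 beta subunit, was read at 5.05 and 6.71 CPM in B/J and 3.51 and 5.47 CPM in J/B in ESCs and 2.56 and 2.295 CPM in B/J and 2.84 and 4.84 CPM in J/B in NPCs (log2 fold change -1.22 ± 0.32, edgeR adjusted p = 0.00969), while its relatives *Kcnab1* and *Kcnab2* rose. The rise of *Kcnab1* was lost without replicate 1 of the B/J ESCs (adjusted p = 0.0677), replicate 2 of the B/J NPCs (0.0503) or replicate 1 of the J/B NPCs (0.06103), and that of *Kcnab2* with a block within each stage (0.0883). The stages overlapped for *Kcnab3*, and its call was lost on library totals (adjusted p = 0.0718) and on the housekeeping scale (0.171).

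Sodium channel genes held 8 rises, no fall and 3 genes not called among 11 tested. Of the pore-forming alpha subunits, 5 of 7 tested rose. *Scn2a*, which encodes Nav1.2, the main sodium channel of young axons, was read at 0.605 and 0.474 CPM in B/J and 0.399 and 0.377 CPM in J/B in ESCs and 2.99 and 9.71 CPM in B/J and 5.75 and 25.1 CPM in J/B in NPCs (log2 fold change 3.93 ± 0.63, edgeR adjusted p = 0.000898). *Scn3a*, which encodes Nav1.3 of the embryonic brain, was already present in ESCs, at 7.15 and 5.36 CPM in B/J and 4.39 and 4.38 CPM in J/B, and reached 10.2 and 38.4 CPM in B/J and 19.3 and 79.3 CPM in J/B in NPCs (log2 fold change 2.23 ± 0.54, edgeR adjusted p = 0.00701). Both were lowest in replicate 1 of the B/J NPCs and highest in replicate 2 of the J/B NPCs. *Scn1a*, which encodes Nav1.1 and is known as a gene of later interneurons, rose from 0.0712 and 0.547 CPM in B/J and 0.0887 and 0.339 CPM in J/B to 1.04 and 2.37 CPM in B/J and 2.201 and 5.39 CPM in J/B (log2 fold change 2.81 ± 0.74, edgeR adjusted p = 0.0101). *Scn8a*, which encodes Nav1.6 of mature axons, rose from 3.24 and 5.03 CPM in B/J and 3.51 and 4.22 CPM in J/B to 6.91 and 21.2 CPM in B/J and 24.4 and 36.1 CPM in J/B (log2 fold change 1.88 ± 0.38, edgeR adjusted p = 0.00278). *Scn7a*, a sodium sensor outside neuronal firing, had no read in ESCs and was at least 13.4-fold higher in NPCs, at 0.389 to 0.781 CPM. *Scn9a*, which encodes Nav1.7 of sensory neurons, was not called, with a mean in NPCs of 1.72 CPM.

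The sodium beta subunits anchor the channels and speed their gating, and *Scn2b*, *Scn3b* and *Scn4b* rose. *Scn3b*, with the REST element letters in an exon, was read at 1.42 and 1.53 CPM in B/J and 2.71 and 2.301 CPM in J/B in ESCs and 5.87 and 22.9 CPM in B/J and 16.5 and 52.8 CPM in J/B in NPCs (log2 fold change 3.05 ± 0.53, edgeR adjusted p = 0.00145). *Scn2b* rose from 0.605 and 0.438 CPM in B/J and 1.198 and 0.226 CPM in J/B in ESCs to 5.29 and 7.79 CPM in B/J and 4.097 and 6.75 CPM in J/B in NPCs (log2 fold change 2.79 ± 0.55, edgeR adjusted p = 0.00263), and was even among the NPC libraries where *Scn3b* spread over 8.48-fold. *Scn4b* rose from a mean of 0.171 CPM to 1.55 CPM.

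Over both crosses the calcium family had the highest share of rises, with 19 rises, 1 fall and 4 genes not called among 24 tested. Within J/B alone its share was 70.8%, against 72.7% of the sodium genes, and the families were not tested against each other. Of the pore-forming alpha1 subunits, 7 of 9 rose. Of the T-type genes, whose channels open near the resting potential, 2 had the most reads of the alpha1 genes in NPCs: *Cacna1g* (Cav3.1) was read at 0.605 and 1.79 CPM in B/J and 1.82 and 3.13 CPM in J/B in ESCs and 90.00 and 114 CPM in B/J and 67.3 and 163 CPM in J/B in NPCs (log2 fold change 5.50 ± 0.44, edgeR adjusted p = 4.24e-05), and *Cacna1h* (Cav3.2) at 0.534 and 0.693 CPM in B/J and 2.09 and 0.754 CPM in J/B and 41.3 and 98.3 CPM in B/J and 69.4 and 115 CPM in J/B (log2 fold change 5.94 ± 0.47, edgeR adjusted p = 4.10e-05). *Cacna1i*, the remaining T-type gene, rose to a mean of 3.54 CPM from 0.220 CPM. *Cacna1c* (Cav1.2), an L-type channel that couples activity to gene expression, was read at 0.214 and 0.255 CPM in B/J and 0.399 and 0.151 CPM in J/B in ESCs and 11.6 and 18.9 CPM in B/J and 14.1 and 29.1 CPM in J/B in NPCs (log2 fold change 5.67 ± 0.46, edgeR adjusted p = 4.39e-05), and its relative *Cacna1d* rose to 5.26 CPM from 0.108 CPM. *Cacna1e* (Cav2.3, the R-type channel) went from 0.0712 and 0.146 CPM in B/J and 0.177 and 0.339 CPM in J/B to 8.67 and 13.2 CPM in B/J and 2.42 and 18.03 CPM in J/B (log2 fold change 5.46 ± 0.75, edgeR adjusted p = 0.000444). *Cacna1e* and *Cacna1g* were lowest in replicate 1 of the J/B NPCs, and *Cacna1c* and *Cacna1h* in replicate 1 of the B/J NPCs.

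The presynaptic Cav2 genes differed in direction. *Cacna1b* (Cav2.2, the N-type channel), with the REST element letters in an intron, rose from 1.99 and 3.39 CPM in B/J and 1.597 and 6.45 CPM in J/B in ESCs to 5.81 and 16.6 CPM in B/J and 13.9 and 37.5 CPM in J/B in NPCs (log2 fold change 1.89 ± 0.56, edgeR adjusted p = 0.0172). Replicate 1 of the B/J NPCs overlapped the ESC range, and the call was lost without replicate 1 of the B/J ESCs (adjusted p = 0.0647), replicate 2 of the B/J NPCs (0.0591) or replicate 2 of the J/B NPCs (0.0657). *Cacna1a* (Cav2.1, the P/Q-type channel) fell from 17.8 and 24.6 CPM in B/J and 24.1 and 26.4 CPM in J/B in ESCs to 4.64 and 13.8 CPM in B/J and 14.5 and 20.2 CPM in J/B in NPCs (log2 fold change -1.35 ± 0.33, edgeR adjusted p = 0.007303). Its stages overlapped through replicate 2 of the J/B NPCs, and it was not called on library totals (adjusted p = 0.0513) or on the housekeeping scale (0.140).

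Alpha2delta subunits, which carry calcium channels to the membrane, rose in 3 of 3 tested. *Cacna2d3* was read at 0.249 and 0.0365 CPM in B/J and 0 and 0.151 CPM in J/B in ESCs and 2.95 and 9.22 CPM in B/J and 6.88 and 13.3 CPM in J/B in NPCs (log2 fold change 5.66 ± 0.83, edgeR adjusted p = 0.000589), and *Cacna2d2* at 4.41 and 4.195 CPM in B/J and 6.39 and 3.73 CPM in J/B and 15.1 and 50.1 CPM in B/J and 45.3 and 106 CPM in J/B (log2 fold change 2.92 ± 0.46, edgeR adjusted p = 0.000833). Beta subunits, which bind the alpha1 subunit inside the cell, rose in 3 of 4. *Cacnb3* was the exception and had the most reads of them in both stages, at 58.98 and 44.5 CPM in B/J and 27.3 and 51.7 CPM in J/B in ESCs and 87.1 and 94.4 CPM in B/J and 73.01 and 110 CPM in J/B in NPCs (log2 fold change 0.53 ± 0.23, edgeR adjusted p = 0.0673). All its NPC libraries lay above its ESC libraries, and it was called on library totals (adjusted p = 0.00682).

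Gamma subunits rose in 6 of 8. Most of them are known less as calcium channel parts than as partners that carry AMPA-type glutamate receptors to synapses. *Cacng2*, stargazin, had 1 read over the ESC libraries, in replicate 1 of J/B, and was read in NPCs at 0.649 and 4.14 CPM in B/J and 2.02 and 8.04 CPM in J/B. Its ratio was 261 with a counting interval of 46.6 to 10336 (edgeR adjusted p = 0.00158), and 165 without replicate 2 of the J/B NPCs. *Cacng4* was read at 3.06 and 4.01 CPM in B/J and 1.597 and 4.64 CPM in J/B in ESCs and 43.4 and 48.6 CPM in B/J and 47.1 and 77.3 CPM in J/B in NPCs (log2 fold change 3.54 ± 0.34, edgeR adjusted p = 8.81e-05), and *Cacng7* at 11.8 and 14.2 CPM in B/J and 22.6 and 19.2 CPM in J/B and 24.2 and 45.3 CPM in B/J and 53.9 and 70.8 CPM in J/B (log2 fold change 1.01 ± 0.23, edgeR adjusted p = 0.00461). *Cacng4* was even in 3 NPC libraries and higher in replicate 2 of J/B. *Cacng3* had no read in ESCs and was at least 21.2-fold higher in NPCs. *Cacng1*, the skeletal muscle subunit, and *Cacng5* also rose, while *Cacng6* and *Cacng8* were not called (adjusted p = 0.0506 and 0.338). *Cacng6* had 8.39 CPM in replicate 1 of the J/B ESCs, far above the other ESC libraries. Those libraries, at 0.819 to 0.948 CPM, lay within its NPC range of 0.546 to 1.10 CPM. Its fall was called with DESeq2 (adjusted p = 0.0254) and by edgeR without a low-count filter (0.0424). By edgeR it was not called on library totals (adjusted p = 0.130) or on the housekeeping scale (0.171). Its log2 fold change was -1.76, and -2.27 to -0.55 over the alternatives. *Cacng8* was called as a rise with a block within each stage (0.0405).

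Among the HCN genes, *Hcn4* rose, while *Hcn2* and *Hcn3* were not called. *Hcn4*, the pacemaker subunit of the sinoatrial node and of thalamus, was read at 0.142 and 0.292 CPM in B/J and 0.488 and 0.604 CPM in J/B in ESCs and 5.84 and 16.8 CPM in B/J and 14.5 and 24.4 CPM in J/B in NPCs (log2 fold change 4.93 ± 0.48, edgeR adjusted p = 8.72e-05). *Hcn2* was the most abundant in both stages, at 9.86 and 16.7 CPM in B/J and 13.8 and 17.01 CPM in J/B in ESCs and 30.2 and 26.4 CPM in B/J and 17.4 and 23.4 CPM in J/B in NPCs (log2 fold change 0.28 ± 0.22, edgeR adjusted p = 0.2902). Its NPC libraries lay above its ESC libraries on the CPM scale, by little in J/B. With TMM factors its log2 fold change within J/B was -0.08 ± 0.31. *Hcn3*, with the REST element letters in an intron, was read at 2.598 and 4.49 CPM in B/J and 3.06 and 6.49 CPM in J/B and 4.02 and 11.5 CPM in B/J and 10.1 and 23.5 CPM in J/B (log2 fold change 0.99 ± 0.46, edgeR adjusted p = 0.0859). On library totals *Hcn2* and *Hcn3* were called as rises (adjusted p = 0.01999 and 0.0264), and *Hcn3* was also called with the replicate block (0.00914), with DESeq2 (0.04801) and without replicate 1 of the B/J NPCs (0.03799).

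**Figure D3:**
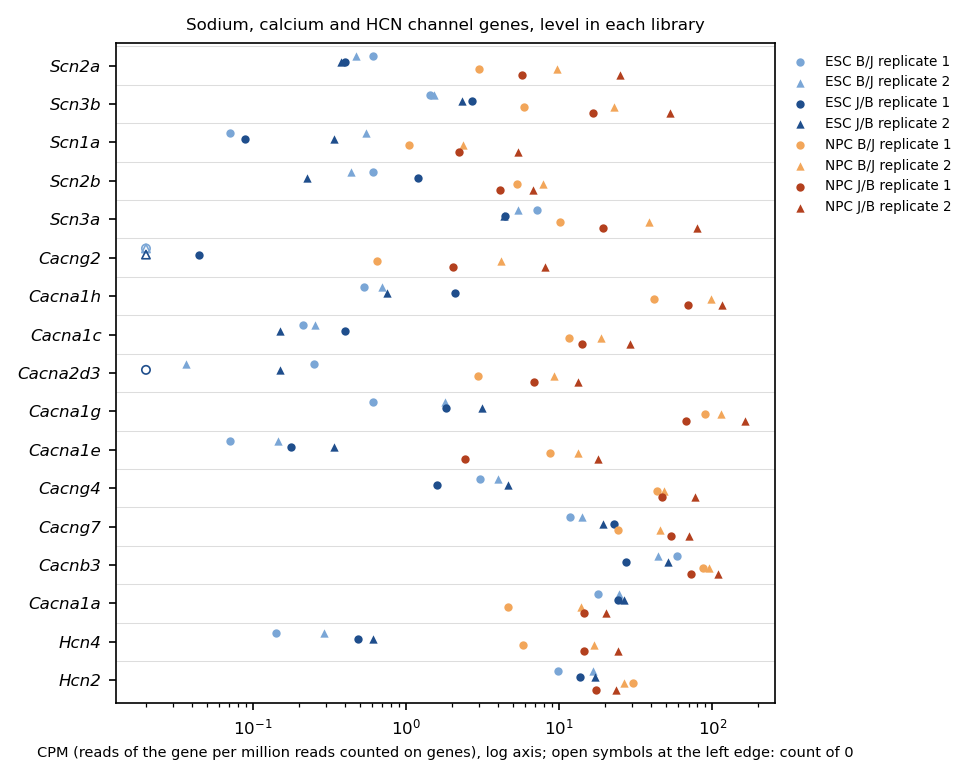
Level of each named sodium, calcium and HCN channel gene in the 8 libraries, in CPM on a log axis, each family ordered by log2 fold change; colour gives stage and cross, shape gives the replicate number, and open symbols at the left edge mark counts of 0. *Cacna1g* and *Cacna1h* reach 67.3 to 163 CPM and 41.3 to 115 CPM in NPCs, and *Cacna1a* is the gene whose NPC libraries lie mostly below its ESC libraries.

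Summed over each family, levels were higher in NPCs in different measure, in sums that were not tested. Calcium channel genes summed to 120 ± 14.6 CPM in ESCs and to 607 ± 239 CPM in NPCs, potassium channel genes to 106 ± 19.3 and 286 ± 117 CPM, sodium channel genes to 16.9 ± 3.05 and 115 ± 74.9 CPM, and HCN genes to 19.7 ± 5.39 and 52.6 ± 14.9 CPM. On library totals no NPC library fell within the ESC range of any family sum, but with TMM factors the potassium sums overlapped, at 109 to 151 CPM in ESCs and 136 to 363 CPM in NPCs. The alpha1 pore genes of calcium channels alone went from 30.3 ± 6.62 to 260 ± 106 CPM, while the silent Kv subunits went from 10.9 ± 2.12 to 7.66 ± 2.82 CPM with overlap between the stages.

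Levels of different genes were compared per kilobase of exon. Among the potassium genes with the highest level were *Kcnh2* (2.23 ± 0.45 CPM per kb) and *Kcnab3* (1.58 ± 0.40) in ESCs and *Kcnh2* (5.39 ± 1.95) and *Kcnn1* (2.64 ± 0.76) in NPCs, and in each stage the ranges of these genes overlapped. *Scn3a* stood at 0.397 ± 0.0975 CPM per kb in ESCs, and in NPCs *Scn3b* (3.42 ± 2.81) and *Scn3a* (2.75 ± 2.29) were the highest sodium genes, again with overlap. *Cacnb3* led the calcium family in ESCs (9.05 ± 2.69 CPM per kb) and in NPCs (18.05 ± 3.02), followed in ESCs by *Cacng7* (4.28 ± 1.23) and in NPCs by *Cacng4* (13.1 ± 3.79), *Cacng7* (12.3 ± 4.89), *Cacna1g* (10.5 ± 3.96) and *Cacna1h* (7.40 ± 2.97), where the range of each gene overlapped that of its neighbour in rank. *Hcn2* led the HCN genes in both stages, at 4.04 ± 0.94 and 6.86 ± 1.52 CPM per kb, and all its libraries lay above those of *Hcn3*, its neighbour in rank.

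The stage comparison was also made within each cross. Within B/J 43 members rose and 11 fell, where 30.1% and 25.6% of all genes did (55.8% together), and within J/B 52 rose and 4 fell, where 29.1% and 25.3% did (54.5% together). Of the 104 tested members, 38 rose in both crosses (36.5%, against 25.04% of all genes) and 3 fell in both (2.88%, against 22.1%). The log2 fold changes of the crosses had the same sign in 96 of the 104 (92.3%), close to the share over all genes tested (91.4%). Each arm of these comparisons held 2 libraries, so the counts rest heavily on single libraries. With 1 of them left out, the arm held 1 library and its spread came from the other groups. Counts of such fits within a cross are therefore not given.

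**Figure D4:**
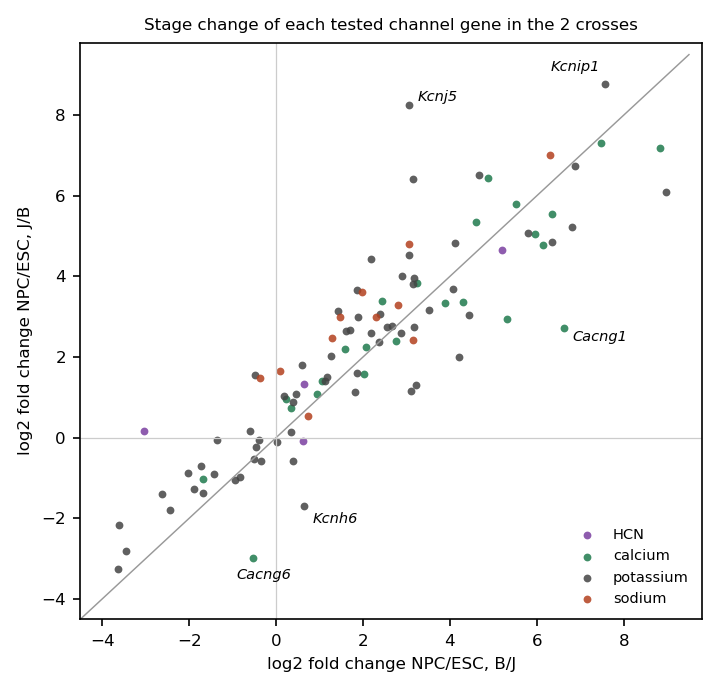
Log2 fold change of NPCs against ESCs for each of the 104 tested channel genes in B/J (x axis) and in J/B (y axis), coloured by family; the line marks equal change. Most genes lie in the upper right quadrant; *Kcnj5* and *Cacng1*, which have 2 ESC reads each, are among those far from the line, and *Kcnh6* lies in the lower right quadrant.

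No channel gene was called between the crosses. In ESCs 0 members were called between J/B and B/J (0% of all genes), with unadjusted p below 0.05 for 2 (*Kcnd3* and *Cacng6*). In NPCs 0 were called (0.0061% of all genes), with unadjusted p below 0.05 for 4, among them *Kcnh6* and *Cacng7*. The test of whether the stage change differed between the crosses called 0 members (0% of all genes), with unadjusted p below 0.05 for 2, among them *Kcnh6*, and DESeq2 and limma-voom also called 0 in each of these comparisons. Within a stage, libraries with the same replicate number deviated together (correlation 0.518 in ESCs and 0.587 in NPCs). A stage-wise block on that number, an alternative added once the data had been seen, also called 0 members, with unadjusted p below 0.05 for 8 in ESCs (7.69%, against 5.33% of all genes), 30 in NPCs (28.8%, against 18.7%) and 10 in the interaction (9.62%, against 10.5%). *Kcnh6*, an ether-a-go-go gene, was read in ESCs at 0.8899 and 2.12 CPM in B/J and 1.06 and 2.41 CPM in J/B and in NPCs at 4.15 and 2.295 CPM in B/J and 0.887 and 0.585 CPM in J/B, so it stood higher in the B/J and lower in the J/B NPCs than in most ESC libraries. Its change in J/B minus that in B/J was -2.35 ± 0.96 (edgeR unadjusted p = 0.0415, adjusted p = 1).

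The 4 NPC libraries stood far apart for many of the rising channel genes. Among the 63 rising members, replicate 2 of the J/B NPCs was the highest NPC library for 49 (77.8%, against 45.4% of all 6145 rising genes), and replicate 1 of the B/J NPCs the lowest for 42 (66.7%, against 40.9%). The highest NPC library exceeded the lowest by a median of 3.23-fold with TMM factors, against 2.07-fold over all rising genes, and by over 4-fold for 27 members (42.9%, against 19.2%). These shares are descriptions without a test, since the members are not independent and all share the same 4 libraries.

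The neuron markers moved along with them. Their summed level was 394 CPM in replicate 1 of B/J, 1088 CPM in replicate 1 of J/B, 1414 CPM in replicate 2 of B/J and 2196 CPM in replicate 2 of J/B, and 25 of the 63 rising members had exactly this order of libraries (39.7%, against 17.97% of all rising genes). *Scn2a*, *Scn3a*, *Scn3b*, *Kcnb2*, *Kcnd3*, *Cacng2*, *Cacna1h* and *Hcn4* are examples. The trophoblast markers ran the other way, with 3471 CPM in replicate 1 of B/J, 1995 CPM in replicate 1 of J/B, 1837 CPM in replicate 2 of B/J and 1351 CPM in replicate 2 of J/B, an order that 0 of the 63 had (4.93% of all rising genes). The order of the neural precursor sum was held by 17.5% of the rising members (12.4% of all rising genes) and that of the glia sum by 11.1% (7.11%). That of the fibroblast sum was held by 7.94% (4.05%), of the muscle sum by 3.17% (2.39%) and of the endothelial sum, which was mostly *Cdh5*, by none (9.03%). A smaller set was even: 13 rising members spread less than 2-fold over the NPC libraries (20.6%, against 47.6%), among them *Kcnj15* at 1.27-fold, *Kcnab1* at 1.29-fold, *Kcna6* at 1.40-fold, *Kcnq5*, *Cacng4* and *Scn2b*. What sets these genes apart was not tested.

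**Figure D5:**
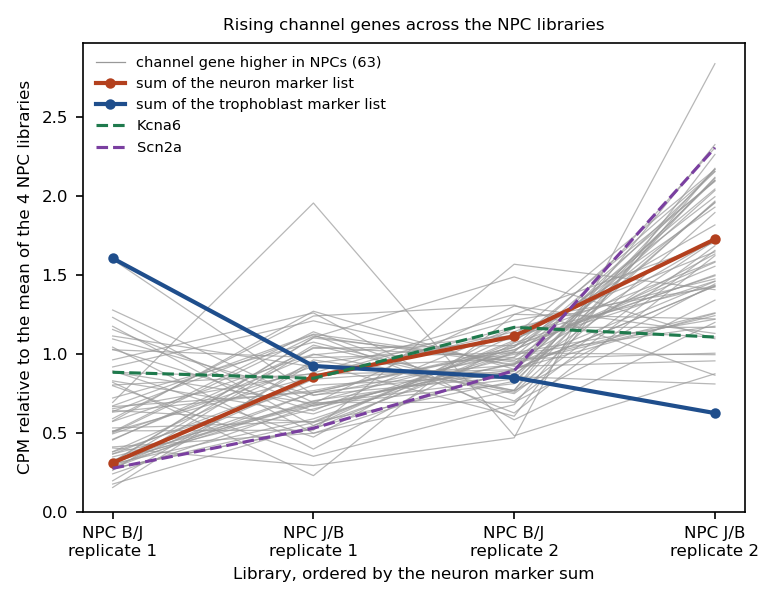
Level of each of the 63 rising channel genes in the 4 NPC libraries relative to its mean there (grey lines), with the summed neuron markers (red), the summed trophoblast markers (blue), *Scn2a* and *Kcna6* (dashed). The libraries are placed by the neuron sum, from 394 to 2196 CPM; *Scn2a* is lowest at the left and highest at the right, and *Kcna6* stays nearly level.

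Several members are neighbours in the genome, and neighbours did not always get the same call. On chromosome 2, *Scn3a* and *Scn2a* (chr2:65287462-65597795 in mm39) and *Scn1a*, *Scn9a* and *Scn7a* (chr2:66101122-66615367) gave 4 rises, with *Scn9a* not called. On chromosome 9, *Scn2b* and *Scn4b* (chr9:45029080-45065452) both rose. The Kv1 genes *Kcna5*, *Kcna1* and *Kcna6* (chr6:126509514-126717644) all rose. On chromosome 11, *Cacng1*, *Cacng4* and *Cacng5* (chr11:107591493-107811030) all rose, whereas *Kcnj16* fell and *Kcnj2* rose within chr11:110858843-110967665. Of *Cacng7*, *Cacng8* and *Cacng6* (chr7:3380237-3485101), only *Cacng7* was called.

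Genes that work with these channels but carry other symbols were counted in lists, to be read against the 37.5% and 31.9% of all genes tested that rose and fell. Of accessory subunits and regulators, 15 rose and 1 fell among 19 tested, including *Dpp6*, a partner of Kv4 channels, which went from 0.342 ± 0.100 CPM to 9.11 ± 5.23 CPM (log2 fold change 4.17 ± 0.52, edgeR adjusted p = 0.000267). Of scaffolds of the axon initial segment and node, 12 rose and 1 fell among 14, with *Ank3*, the ankyrin that anchors sodium and Kv7 channels, which went from 23.1 ± 2.48 CPM to 93.5 ± 43.8 CPM (1.51 ± 0.33, adjusted p = 0.00442). The faller was *Sptbn4*, the spectrin of the same membrane skeleton (-1.61 ± 0.32, adjusted p = 0.00275). Of pumps and transporters that set the ion gradients, 9 rose and 0 fell among 14, with *Slc12a5*, the chloride exporter of maturing neurons, at 1.07 ± 0.504 CPM and 17.3 ± 11.4 CPM (3.48 ± 0.45, adjusted p = 0.000322). Other voltage-sensing or related channels gave 5 rises and 1 fall among 8. REST and its cofactors gave 3 falls, *Rest*, *Rcor2* and *Sin3a*, and 1 rise, *Rcor1*.

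The 20 members that were not tested had at most 0.764 CPM in any library, and *Kcna10* had no read at all. Among them were the muscle sodium channel gene *Scn4a*, the sensory neuron genes *Scn10a* and *Scn11a*, the retinal calcium channel gene *Cacna1f*, the cardiac Kv7 gene *Kcnq1* and *Kcne1*, *Kcne2* and *Kcne3*. No member shared over 20% of its exon bases with another gene on its own strand, and 11 faced an antisense exon over more than 20%, among them *Kcna6* (39.7%, a non-coding gene) and *Hcn3* (25.0%, *Pklr*). The sources used here do not give whether counting used the strand, so for these 11 genes reads of the antisense partner could be included.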

How the data were processed

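Paired-end RNA-seq of 8 libraries was used, prepared with 2 kits and sequenced on 2 instruments that the labels do not assign to libraries. The authors aligned reads with TopHat2 to an mm39 genome masked at strain SNPs, with genes adapted from the UCSC refGene track, and kept proper pairs of mapping quality 20 or above. The submitters' processing notes also name HTSeq, DESeq2 and edgeR without versions; the sources used here do not give the settings of the counting. The deposited values are raw read counts per gene over both alleles, without normalization. Reads without a gene (5.76% to 10.9% of a library) or shared between genes (0.355% to 0.554%) stayed out of all totals.

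Counts were fitted in R 4.3.3 with edgeR 4.0.16 (TMM, filterByExpr with a minimum count of 10, robust quasi-likelihood, 1 mean for each of 4 groups, common dispersion 0.113), with Benjamini-Hochberg adjustment over 16399 genes and a threshold of 0.05. Alternatives were RLE factors, library totals, housekeeping scaling, DESeq2 1.42.0, limma-voom (limma 3.58.1), other low-count filters, *Kcnmb* genes left out, a replicate block, each library left out and, added after seeing the data, a replicate block within each stage. Intervals and the limit of 3 counts cover counting error only. Exon lengths, positions and starts are from GENCODE vM39 on GRCm39, which held all 124 members.

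Genes with values in every library were the 10 largest rises and 6 largest falls of the potassium family, 4 and 4 of the sodium, 6 and 4 of the calcium and 2 and 2 of the HCN family among called genes with a mean of at least 1 CPM in a stage, and those highest per kb of exon (3, 2, 2 and 1 per family), 34 genes in all, leaving out some that are not reported here. Others given with values were chosen after their values were seen, for their role. The members and all lists were chosen with earlier results of these data known. Allelic expression was not analysed here.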

Additional observations from a re-analysis of the deposited data

Results flagged for a closer look

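In 144 groups of 4 libraries (both stages of the genes given with values), 16 held a library whose gap to its nearest neighbour was large for the range of the group by Dixon's test, which chance gives in about 1 in 20 groups. In 5 of the 16 the other 3 libraries had no read, so the gap filled the whole range whatever the count and that rate does not apply to them. Among the ESCs, replicate 1 of J/B stood apart for *Cacna1h* (2.09 CPM), *Cacng6* (8.39 CPM), *Kcna5* and *Kcnt1* (1.06 CPM each) and *Cacng5* (0.222 CPM) and, with 1 read against none in the other libraries, for *Cacng2* and *Kcne4* (0.0444 CPM each). Replicate 2 of J/B stood apart for *Kcnh3* (3.85 CPM) and, with 2 reads against none, for *Cacng1* (0.0754 CPM), and replicate 2 of B/J, with 2 reads against none, for *Kcnj5* and *Kcnj15* (0.0730 CPM each). Among the NPCs, replicate 2 of J/B stood above the others for *Cacng4* (77.3 CPM) and *Kcnj5* (2.97 CPM), replicate 1 of J/B for *Kcnab1* (0.642 CPM), and replicate 1 of B/J above them for *Kcnc4* (5.55 CPM) and below them for *Kcnh2* (12.9 CPM).

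*Kcnh6* was the gene among those given with values that moved in opposite directions in the 2 crosses in every library on the CPM scale (with TMM factors replicate 2 of the B/J NPCs lay below replicate 2 of the B/J ESCs), where the change in J/B minus that in B/J was -2.35 on the log2 scale (edgeR unadjusted p = 0.0415, adjusted p = 1), so the difference did not pass the test over all genes.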

How the results depend on the processing

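The rises over both crosses numbered 48 (mean of at least 1 CPM, which tests fewer genes) to 72 under all alternatives, against 63, and 61 with *Kcnmb* genes left out. With each library left out in turn, the rises numbered 56 to 70 and the falls 9 to 11. The falls numbered 6 on library totals and 6 on the housekeeping scale, against 11, and 7 with the filter on 1 CPM. Within B/J the falls numbered 7, 5 and 7 under the same 3 settings, against 11, and within J/B they numbered 1 and 1 under both scalings, against 4, and the cause of these shifts was not tested. Leaving out libraries gave 19 to 45 rises and 3 to 10 falls within B/J, and 24 to 51 rises and 1 to 4 falls within J/B. With TMM factors the summed calcium genes in ESCs stood at 142 CPM, against 120 CPM. No gene given with values changed direction, except *Kcnd1*, *Kcnh6*, *Scn9a* and 3 silent Kv subunits, whose signs turned under some settings without a call in any. For 6 genes a call was gained in 24 fits and for 11 others lost in 40, while 1145 other fits left the call as it was, and the lost calls are named beside their genes. Leaving out a library moved the fold change by over 1.5 times for 31 called genes, in 45 fits. The change became smaller in 12, as for *Scn3a* without replicate 2 of the J/B NPCs (log2 1.56, against 2.23). The same library lowered *Cacna1e* (4.43, against 5.46), and replicate 2 of the B/J NPCs lowered *Scn3b* when left out (2.41, against 3.05). In 33 fits the change became larger, as for *Kcnc1* without replicate 2 of the J/B ESCs (8.31, against 5.59). *Kcnn4* fell further without replicate 1 of the B/J NPCs (-5.15, against -3.44). The comparisons between crosses and the interaction gave 0 calls with each library left out.

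The numbers 1 and 2 did not pair the libraries across stages: differences between replicates correlated at 0.518 within ESCs and 0.587 within NPCs but only at 0.0489 to 0.0915 across stages. With a replicate block, 67 members rose and 12 fell over both crosses, 52 and 12 within B/J and 58 and 6 within J/B. With the block within each stage, which was chosen after seeing the data, the counts were 63 and 12, 54 and 12, and 58 and 4. Without counts above 3 reads in ESCs, as for *Cacng2*, *Kcne4*, *Kcnip1*, *Kcnj5* and *Scn7a*, the size of a rise is set by a floor or a wide interval.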
